A study of Mus musculus with 12 samples.

Results

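The genes described here encode the enzymes that make cholesterol and fatty acids, with the proteins that regulate and move sterols. They were named as a pathway list of 31 genes, and 30 of them were measured among 18193 genes on Affymetrix arrays of mouse embryonic stem cells. The list was divided by role into 18 sterol synthesis genes, of which 17 were measured, 8 genes of fatty acid synthesis and 5 regulator and transport genes. Acat2, the cytosolic thiolase before the mevalonate route, has no probe set under its own symbol in the annotation used here. Where a gene had several probe sets, the brightest over the 12 arrays stood for it, and signals of different probe sets are not set against each other. The cells were TBV2, a wild-type line of strain 129/SvP, kept on gelatin without feeder cells in medium that held leukemia inhibitory factor (LIF) and lacked added non-essential amino acids. The proline group had received 500 µM L-proline for 5 days, and the control group was kept for the same time without it. Each group held 2 biological replicates of 3 arrays each, and the 3 arrays of a replicate were averaged before any comparison. All arrays come from the same cell line, and the labels do not say how the biological replicates were kept apart, so that the p-values measure the spread between these samples alone, which may be technical. The pluripotency markers of the labelled cell type were bright on every array, with mean log2 signals over the 8 markers of 12.27 to 12.48 on proline arrays and 12.63 to 12.84 on control arrays. These ranges did not overlap. Of these 8, Zfp42 fell by 1.39 on the log2 scale (limma adjusted p = 0.0288) and the other 7 did not pass. A log2 fold change above 0 was found for 1 of the 8, against 43.9% of all genes. Both proline means lay below both control means for 6 of the 8, against 28.7% of all genes, and above them for 1, against 24.0%.

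Cholesterol is built from acetyl-CoA through mevalonate, the isoprenoid farnesyl diphosphate, squalene and lanosterol. When sterol in the endoplasmic reticulum runs low, Scap carries the precursors of the SREBP transcription factors, encoded by Srebf1 and Srebf2, to the Golgi, where they are cut and released to the nucleus. Srebf2 mainly serves the sterol genes and Srebf1 mainly the fatty acid genes, and Insig1 holds Scap back when sterol is plentiful. SREBPs bind sterol elements near the start of their target genes, usually beside sites for the factors NF-Y and Sp1.

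The promoters of 4 genes are shown, Hmgcs1 because its window holds a sterol element match and the others as examples of their roles. They are Hmgcs1 at the entry of the sterol route, Cyp51 in its later part, the regulator Srebf2, and Fasn of the fatty acid route, and these 4 were chosen after their values were seen. Each window runs from 250 bases before the annotated start to 50 bases after it, 5′ to 3′ on the gene's strand (RefSeq, GRCm38.p6). Hmgcs1 lies at chr13:119690101-119690400 on the plus strand, Cyp51 at chr5:4104648-4104947 on the minus strand, Srebf2 at chr15:82147019-82147318 on the plus strand and Fasn at chr11:120824498-120824797 on the minus strand. Capitals mark the core of the sterol element, TCACNCCAC, and the NF-Y motif CCAAT, on either strand.
Hmgcs1: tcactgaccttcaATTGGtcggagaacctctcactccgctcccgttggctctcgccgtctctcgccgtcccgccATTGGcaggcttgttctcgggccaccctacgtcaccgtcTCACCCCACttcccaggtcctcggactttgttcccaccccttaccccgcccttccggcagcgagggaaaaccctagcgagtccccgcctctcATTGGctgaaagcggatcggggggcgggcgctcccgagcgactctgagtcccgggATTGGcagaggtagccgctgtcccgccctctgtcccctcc
Cyp51: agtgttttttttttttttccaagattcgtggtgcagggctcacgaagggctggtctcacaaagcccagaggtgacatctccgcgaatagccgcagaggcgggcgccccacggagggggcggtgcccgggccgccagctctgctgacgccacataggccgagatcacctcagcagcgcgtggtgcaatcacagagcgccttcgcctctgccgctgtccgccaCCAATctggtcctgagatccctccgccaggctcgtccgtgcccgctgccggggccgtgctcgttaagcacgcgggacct
Srebf2: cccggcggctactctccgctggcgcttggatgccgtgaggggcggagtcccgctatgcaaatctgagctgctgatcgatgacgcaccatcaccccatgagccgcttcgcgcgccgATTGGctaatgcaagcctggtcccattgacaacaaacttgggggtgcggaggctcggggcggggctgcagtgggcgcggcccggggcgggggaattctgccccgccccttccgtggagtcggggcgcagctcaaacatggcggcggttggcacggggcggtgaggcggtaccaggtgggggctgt
Fasn: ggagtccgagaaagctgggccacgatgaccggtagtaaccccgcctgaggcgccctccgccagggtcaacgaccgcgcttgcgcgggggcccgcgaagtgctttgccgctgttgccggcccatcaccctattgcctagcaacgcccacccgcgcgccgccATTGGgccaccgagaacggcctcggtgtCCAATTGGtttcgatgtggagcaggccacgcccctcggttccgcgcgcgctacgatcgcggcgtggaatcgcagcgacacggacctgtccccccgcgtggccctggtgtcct

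The 4 windows differ in what these letters mark. The sterol core was found once in Hmgcs1, at position -137 from the start, and not in the other windows shown. Hmgcs1 was shown for this match, so its presence there follows from the choice. CCAAT was found 4 times in Hmgcs1, once each in Cyp51 and Srebf2, and 3 times in Fasn, where a pair on opposite strands overlaps. Of the 31 genes, 24 have a window in the table. Fdps, Fdft1, Sqle, Scd1, Scd2, Fads1 and Stard4 do not. Hmgcs1 was the 1 gene of the 24 with the sterol core, which 1.44% of all genes with a window hold. Only exact matches were counted, so a sterol element with other letters would be missed. The Srebf2 window holds tcaccccat, which differs from the core in its last letter. CCAAT was found in 19 of the 24, against 41.06% of all genes and 42.32% of protein-coding genes. The Sp1 motif GGGCGG was found in 20 of them, against 38.2% of all genes and 49.23% of protein-coding genes. The E-box CACGTG was found in 5, against 8.09% of all genes. These matches describe letters in a window and are not measured binding.

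After proline, no gene of the list passed limma's test at an adjusted p of 0.05. Of 18193 genes, 4.36% passed, 3.03% higher and 1.34% lower. At an unadjusted p under 0.05, 2 of the 30 genes were higher, Tm7sf2 and Fads2, and 0 were lower, against 12.7% of all genes higher and 9.32% lower. Both proline means lay above both control means for 5 genes (Cyp51, Tm7sf2, Acaca, Fads2 and Srebf2), against 24.0% of all genes, and below them for 0, against 28.7%. On the means, 27 of 30 genes lay above the control level, where 43.9% of all genes did. The median log2 fold change was 0.39 for the 17 sterol genes, 0.30 for the 5 regulator and transport genes, 0.21 for the 8 fatty acid genes and -0.03 for all genes. A median of 0.39 is a 1.31-fold difference. These medians join a pair of proline replicates that differed from each other, and each is therefore given apart below. In such bulk RNA, fewer cells of a kind and less RNA per cell cannot be told apart.

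Proline replicate 2 had the highest of the 4 replicate means for 30 of 30 genes, a pattern that 23.3% of all genes had, and 26.5% of those at or above the 40th percentile of signal. Against the mean of the controls, the sterol genes lay at a median log2 difference of 0.84 in proline replicate 2 (1.79-fold, 17 of 17 above 0, against 42.9% of all genes). In proline replicate 1 the same median was -0.22 (0.86-fold, 5 of 17 above 0, against 47.1% of all genes). The regulator and transport genes gave medians of 0.63 and -0.23 in these replicates, and the fatty acid genes gave 0.42 and -0.18. All genes gave -0.05 and -0.02. The medians of proline replicate 1 depended on the control used. Against control replicate 1 alone they were -0.05 for sterol, -0.11 for regulator and transport and 0.14 for fatty acid genes. Against control replicate 2 alone they were -0.28, -0.21 and -0.33. All genes gave -0.02 and -0.01 against these controls. Proline replicate 1 lay below both controls for 15 of the 30 genes (38.8% of all genes), between them for 10 (26.1%) and above both for 5 (35.1%). The 3 arrays of proline replicate 2 lay above the other 9 arrays for 24 of 30 genes, including 17 of 17 sterol genes, 4 of 8 fatty acid genes and 3 of 5 regulator and transport genes. Of all genes 10.3% did so, and 13.6% of those at or above the 40th percentile of signal, where the 30 genes all lay.

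**Figure D1:**
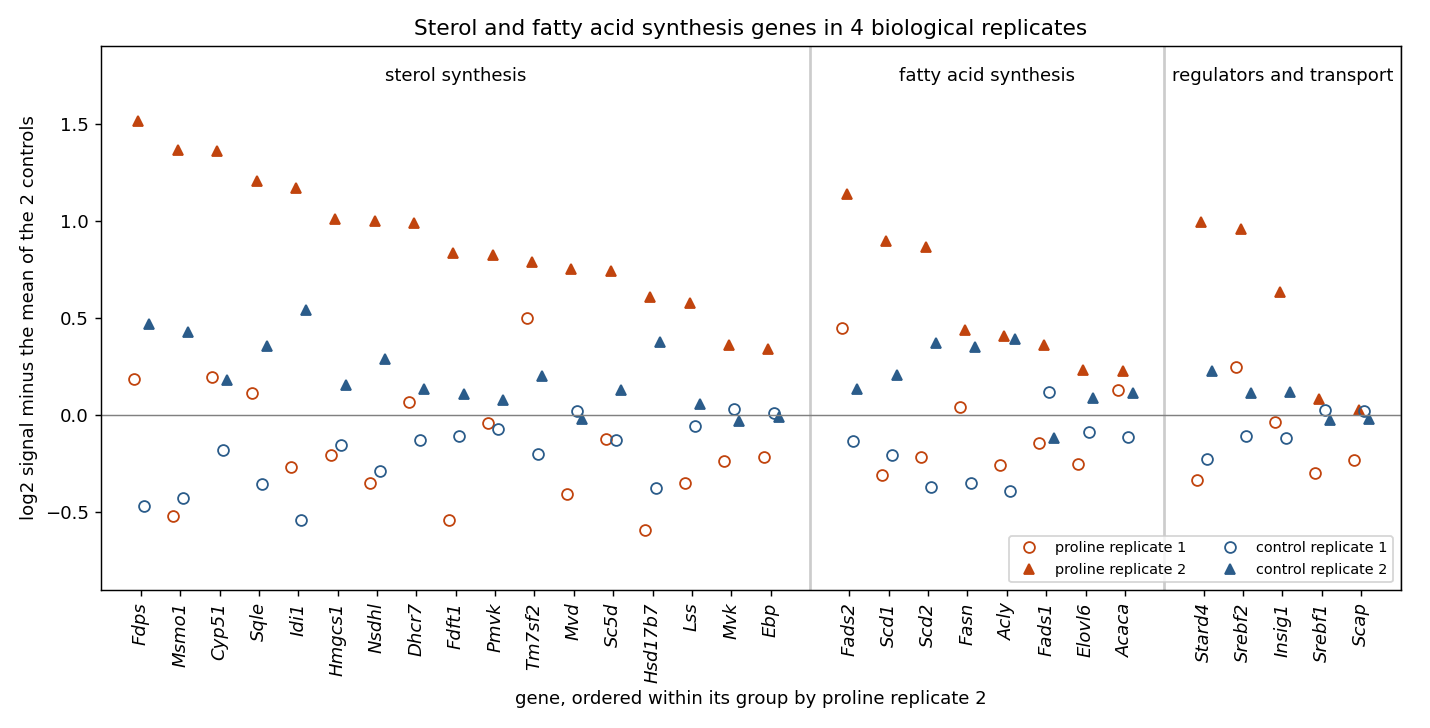
Log2 signal minus the mean of the 2 controls (vertical axis) for the 30 measured genes, by group and ordered by proline replicate 2. Open marks are replicate 1 and filled marks replicate 2, red for proline and blue for control, each the mean of 3 arrays. The filled red marks are the highest of the 4 for every gene, and the open red marks lie on both sides of 0.

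The mevalonate route leads from acetyl units to farnesyl diphosphate. Hmgcs1, the synthase that makes HMG-CoA, read a log2 signal of 12.17 and 13.38 in proline replicates 1 and 2, against 12.22 and 12.53 in control replicates 1 and 2. Proline replicate 1 was thus near the lower control and proline replicate 2 above both. The log2 fold change was 0.40 ± 0.43 (moderated SE, limma adjusted p = 0.680). Idi1, the isomerase that makes the reactive isoprene unit, read 10.21 and 11.65 after proline and 9.94 and 11.02 in controls. Its controls differed 2.12-fold from each other, and proline replicate 1 lay between them. Fdps, which joins the units to farnesyl diphosphate, read 11.06 and 12.39 after proline and 10.41 and 11.34 in controls. Its log2 fold change of 0.85 ± 0.55 was the largest of the list and did not pass (limma adjusted p = 0.468). In proline replicate 2 it stood 2.86-fold above the control mean, and in proline replicate 1 1.14-fold. Between these steps lie the kinases and decarboxylase of mevalonate. Pmvk read 8.74 and 9.60 after proline and 8.70 and 8.85 in controls. Mvd read 8.38 and 9.54 after proline and 8.81 and 8.76 in controls, so that proline replicate 1 lay below both controls and proline replicate 2 above both. Mvk, the mevalonate kinase, had a smaller range, with 8.12 and 8.72 after proline and 8.39 and 8.32 in controls. Medians for the 6 genes of this route were 0.92 in proline replicate 2 and -0.22 in proline replicate 1 against the control mean.

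From farnesyl diphosphate, squalene synthase (Fdft1), squalene epoxidase (Sqle) and lanosterol synthase (Lss) form the first sterol. Fdft1 read 9.73 and 11.11 after proline and 10.16 and 10.38 in controls, the controls lying between the proline replicates. Sqle, a rate-limiting enzyme of this route, read 10.66 and 11.76 after proline and 10.19 and 10.91 in controls. Its log2 fold change was 0.66 ± 0.44 (limma adjusted p = 0.487), and proline replicate 1 lay between the controls. Lss read 9.48 and 10.40 after proline and 9.77 and 9.88 in controls.

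The later enzymes turn lanosterol into cholesterol. Cyp51, the lanosterol demethylase, read 8.78 and 9.94 after proline and 8.40 and 8.76 in controls. Both proline means lay above both control means, though in proline replicate 1 by 0.02 over the higher control. Its log2 fold change was 0.78 ± 0.42 (limma adjusted p = 0.376). Tm7sf2, the reductase after Cyp51, departed from the other sterol genes. It read 8.04 and 8.33 after proline and 7.34 and 7.74 in controls, and its 6 proline arrays (7.90 to 8.36) lay above its 6 control arrays (7.33 to 7.78). The log2 fold change was 0.64 ± 0.20, with an unadjusted p of 0.0252 and an adjusted p of 0.158 in limma. It was the sterol gene with the smallest gap between the proline replicates. Msmo1, the methylsterol oxidase, had the widest gap, with 9.69 and 11.58 after proline and 9.79 and 10.64 in controls. Proline replicate 2 stood 3.69-fold above proline replicate 1 for this gene, and control replicate 2 stood 1.81-fold above control replicate 1. Its log2 fold change was 0.42 ± 0.69 (limma adjusted p = 0.803).

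Nsdhl and Hsd17b7 complete the removal of the methyl groups with Msmo1. Nsdhl read 8.81 and 10.16 after proline and 8.87 and 9.45 in controls. Hsd17b7 read 7.53 and 8.73 after proline and 7.75 and 8.50 in controls, with a mean difference of 0.01 on the log2 scale. The isomerase gene Ebp read 9.18 and 9.74 after proline and 9.41 and 9.39 in controls. Sc5d, a sterol desaturase, read 8.15 and 9.02 after proline and 8.15 and 8.41 in controls. Dhcr7, the reductase of the last step, read 9.74 and 10.66 after proline and 9.54 and 9.80 in controls. For Nsdhl, Hsd17b7 and Ebp, proline replicate 1 lay below both controls. For Sc5d and Dhcr7 it lay between them.

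**Figure D2:**
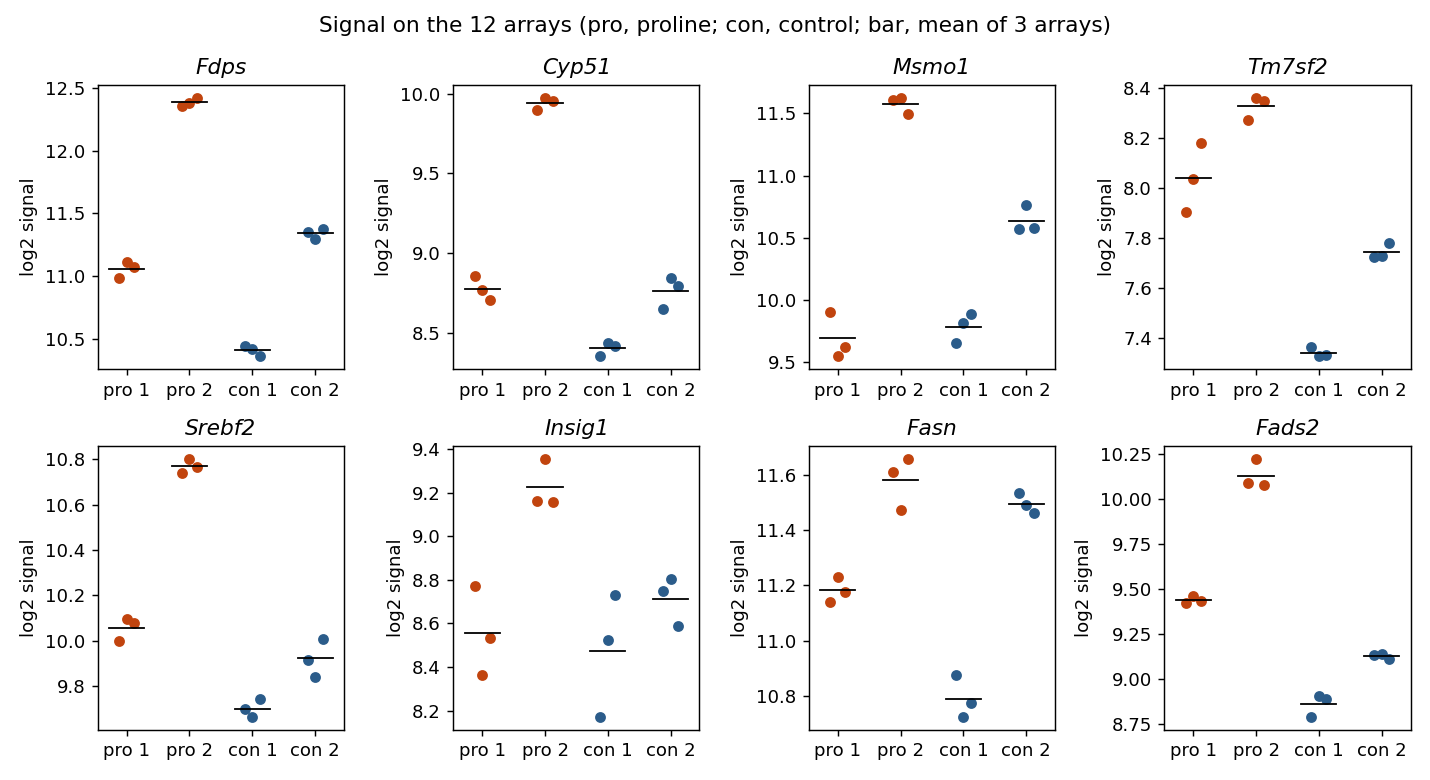
Log2 signal (vertical axis, own range in each panel, not from 0) on each of the 12 arrays for 8 genes; red points are proline and blue points control arrays, and bars are means of the 3 arrays of a biological replicate. For Fdps, Cyp51 and Msmo1 the proline replicate 2 arrays stand apart from the others, for Tm7sf2 and Fads2 all 6 proline arrays are above all 6 control arrays, and for Fasn the arrays of control replicate 2 (11.46 to 11.53) overlap those of proline replicate 2 (11.47 to 11.66).

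Among the regulators no gene passed, and Srebf2 had the widest difference between the groups. It read 10.06 and 10.77 after proline and 9.70 and 9.92 in controls, both proline means above both control means. Its log2 fold change was 0.60 ± 0.27 (limma adjusted p = 0.294), and its other probe set gave 0.81. Srebf1 read 9.47 and 9.85 after proline and 9.80 and 9.75 in controls (log2 fold change -0.11 ± 0.17). Scap read 9.15 and 9.40 after proline and 9.40 and 9.36 in controls (log2 fold change -0.10 ± 0.14). For these genes, proline replicate 1 was below both controls and proline replicate 2 level with or slightly above the higher one. Insig1, itself induced by SREBPs, read 8.56 and 9.23 after proline and 8.47 and 8.71 in controls. Its arrays scattered more within a replicate, from 8.17 to 8.73 in control replicate 1. Stard4, which carries cholesterol between membranes, read 8.38 and 9.71 after proline and 8.49 and 8.94 in controls, a spread like that of the sterol enzymes.

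In fatty acid synthesis, the 3 genes that build the saturated chain showed small differences. Acly, which supplies cytosolic acetyl-CoA, read 11.52 and 12.19 after proline and 11.39 and 12.17 in controls. Proline replicate 2 and control replicate 2 were level, and so nearly were both replicates numbered 1. Acaca, the acetyl-CoA carboxylase, read 9.77 and 9.86 after proline and 9.53 and 9.75 in controls. Fasn, the fatty acid synthase, read 11.18 and 11.58 after proline and 10.79 and 11.50 in controls, and its log2 fold change was 0.24 ± 0.29 (limma adjusted p = 0.723). For these 3 genes the median difference of proline replicate 2 was 0.08 from control replicate 2, 0.79 from control replicate 1 and 0.41 from the control mean. From control replicate 2, the sterol genes gave 0.73 and the 5 elongation and desaturation genes 0.50.

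The genes that elongate and desaturate the chain were less uniform. Fads2, the desaturase that begins the synthesis of long polyunsaturated fatty acids, read 9.44 and 10.13 after proline and 8.86 and 9.13 in controls. Its 6 proline arrays (9.42 to 10.22) lay above its 6 control arrays (8.79 to 9.14), and its log2 fold change was 0.79 ± 0.27, with an unadjusted p of 0.0347 and an adjusted p of 0.188 in limma. Tm7sf2 and Fads2 were the 2 of 30 genes with such separation upward on the probe set used, found in 13.8% of all genes. The stearoyl-CoA desaturase Scd1 read 9.40 and 10.61 after proline and 9.50 and 9.92 in controls. Scd2, a desaturase of the same family, read 11.33 and 12.41 after proline and 11.18 and 11.92 in controls. Both desaturases stood highest in proline replicate 2 by a margin like that of the sterol enzymes, and Scd1 was below both controls in proline replicate 1. Fads1, the desaturase that acts after Fads2, read 8.95 and 9.45 after proline and 9.21 and 8.98 in controls. Elovl6, an elongase, read 10.57 and 11.06 after proline and 10.73 and 10.91 in controls, with a log2 fold change of -0.01 ± 0.20. Neither gene separated the groups.

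Set side by side, the medians of the sterol and fatty acid lists differed in proline replicate 2 and hardly in proline replicate 1. The sterol median minus the fatty acid median was 0.42 in proline replicate 2 and -0.04 in proline replicate 1, both against the control mean, and 0.18 for the average of the pair (log2). Between the controls it was -0.03, as replicate 2 minus replicate 1. Within the fatty acid list, the 5 elongation and desaturation genes had a median of 0.87 in proline replicate 2, and the 3 genes of the saturated chain had 0.41. The sterol median was 0.84. The 5 genes were not uniform, with 1.14 for Fads2, 0.90 for Scd1, 0.87 for Scd2, 0.36 for Fads1 and 0.23 for Elovl6. Fads1 and Elovl6 thus lay below the median of the saturated chain. Since the difference between the lists rests on 1 proline replicate, it has no replicate check. In proline replicate 2, 6 of 17 sterol genes (Fdps, Msmo1, Cyp51, Sqle, Idi1 and Hmgcs1) and 1 of 8 fatty acid genes (Fads2) stood more than 2-fold above the control mean, where 5.71% of all genes did. This 2-fold limit and the one used for the gaps were set after the values were seen. Hmgcs1 lay just inside it at 2.01-fold, and Nsdhl, Stard4 and Dhcr7 just outside it at 1.996-fold, 1.99-fold and 1.99-fold. With proline replicate 2 alone against both controls, 13 of 17 sterol genes, 2 of 8 fatty acid genes and 3 of 5 regulator and transport genes were higher at an unadjusted p under 0.05 in limma, against 12.2% of all genes, with 0 of the 30 lower, against 8.01%, and 0 genes passed after adjustment. With proline replicate 1 alone, 0 of the 30 were higher, against 10.1% of all genes, and 1, a sterol gene, was lower, against 5.79%. In both fits the lone proline sample is taken to vary as the controls do. Each fit holds 1 proline sample, so these counts describe that sample and cannot measure an effect of proline. The genes of a fit share that sample and are not separate tests of it. The count for proline replicate 2 restates that this replicate had the highest mean for all 30 genes.

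Replicate 2 stood above replicate 1 for most of these genes, in both groups. It exceeded replicate 1 in proline for 30 of 30 genes and in control for 24 of 30, where 44.9% and 47.0% of all genes did, and in both groups for 24, where 24.9% did. Median gaps in proline were 1.16 for sterol genes (2.24-fold), 0.67 for regulator and transport genes, 0.59 for fatty acid genes and -0.03 for all genes. In control the medians were 0.31, 0.22, 0.34 and -0.02. With all probe sets of a gene summarised by their median, the fatty acid gap was 0.73 in proline and 0.64 in control. A gap of more than 2-fold in proline was found for 10 of 17 sterol genes, 2 of 8 fatty acid genes (Scd1 and Scd2) and 1 of 5 regulator and transport genes (Stard4). It was found in 1.33% of all genes, and in 1.76% of those at or above the 40th percentile of signal. The gap was larger in proline than in control for 26 of 30 genes, against 49.9% of all genes. The 4 exceptions were Acly, Acaca, Fasn and Tm7sf2. Across the 17 sterol genes, the gap in control and the gap in proline correlated at r = 0.61, and across all 18193 genes at r = 0.34. Across the 8 fatty acid genes r was also 0.34, and across the 5 regulator and transport genes 0.96. These values are a description over few genes in each list, and all genes share the same 12 arrays.

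**Figure D3:**
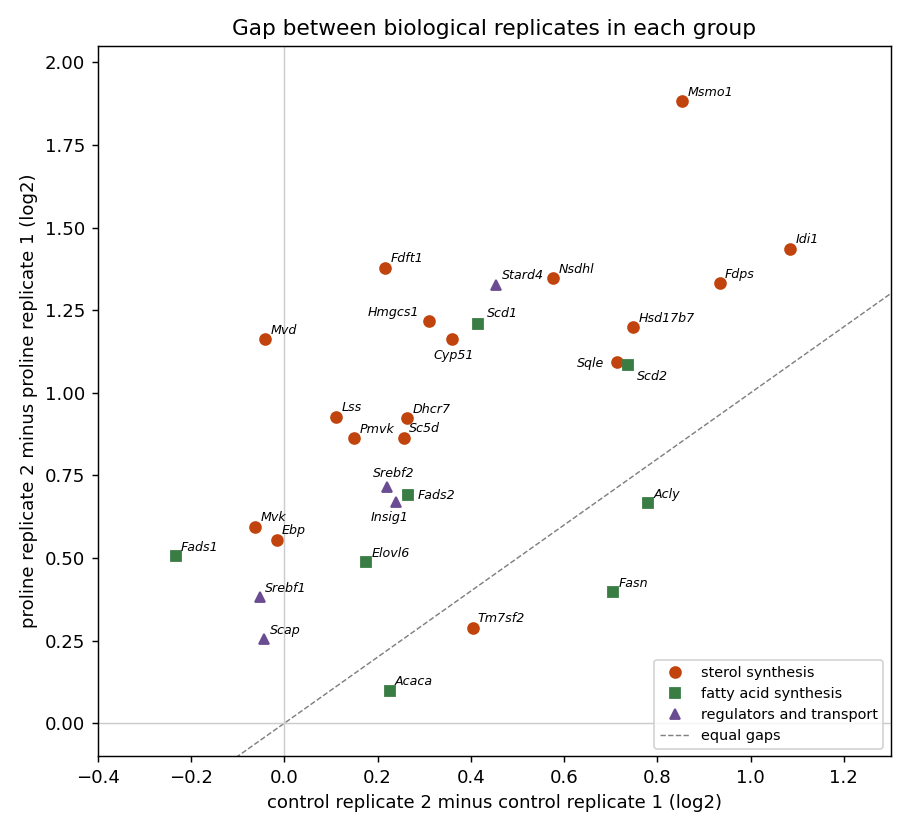
Gap between biological replicates (replicate 2 minus replicate 1, log2) in control (horizontal axis) and in proline (vertical axis), 1 point per gene. The dashed line marks equal gaps, and Acly, Acaca, Fasn and Tm7sf2 are the points below it.

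Measures of the arrays themselves also differed between the replicates. For beta-actin, the signal at the 5′ end minus that at the 3′ end, which is lower where RNA is degraded, was -0.66 and -0.24 in proline replicates 1 and 2 and -0.90 and -0.50 in control replicates 1 and 2 (log2). For Gapdh it was -0.36 and -0.11 after proline and -0.44 and -0.15 in controls. Signal for 18S ribosomal RNA was 9.74 and 8.35 after proline and 10.74 and 10.04 in controls. Poly-A control transcripts spiked into the samples gave 8.57 and 8.05 after proline and 8.93 and 8.54 in controls. As replicate 2 minus replicate 1, the beta-actin difference changed by 0.42 in proline and 0.40 in control, and the Gapdh difference by 0.26 in proline and 0.29 in control. The same gap was wider in proline for 18S (-1.39 in proline and -0.70 in control), the poly-A controls (-0.52 in proline and -0.39 in control) and the hybridization controls (-0.29 in proline and -0.12 in control). The sterol median gap was 1.16 in proline and 0.31 in control. The part of these measures in the gaps was not tested.

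Markers of other cell types were read beside the gaps. Of the fibroblast markers, 3 of 8 were below a log2 signal of 5.36, the 40th percentile over probe sets, as were 4 of 5 adipocyte, 2 of 4 hepatocyte, 4 of 8 extraembryonic endoderm and 1 of 6 trophoblast markers. Mean log2 signals over the fibroblast list were 5.32 to 5.89 on proline arrays and 5.37 to 5.80 on control arrays. Those of the adipocyte list were 4.86 to 5.03 on proline arrays and 4.69 to 5.04 on control arrays. The hepatocyte list had 4.87 to 5.19 on proline arrays and 5.05 to 5.21 on control arrays. These ranges overlapped between the groups, as did those of extraembryonic endoderm (5.38 to 5.57 on proline and 5.35 to 5.52 on control arrays) and trophoblast (7.01 to 7.50 on proline and 6.58 to 7.36 on control arrays). Of 8 fibroblast markers, 7 had more signal in replicate 2 of proline than in replicate 1, by a median of 0.45 over the list, and 1 did so in control. Of all genes, 44.9% did so in proline and 47.0% in control. In proline and control, the counts were 6 and 7 of 8 for extraembryonic endoderm and 4 and 5 of 6 for trophoblast. They were 1 and 1 of 5 for adipocytes and 0 and 3 of 4 for hepatocytes. The keratin gene Krt8, in the trophoblast list, read 9.71 and 11.97 after proline and 7.17 and 10.40 in controls, and so was higher in replicate 2 of both groups. Its gaps were the largest of that list, whose median gaps were 0.12 in proline and 0.25 in control. The part of these markers in the gaps was not tested.

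Most other probe sets of the same genes gave the gap too. The 30 genes had 69 probe sets, of which 64 had a proline gap above 0 and 54 had a log2 fold change above 0. These counts include the 30 probe sets used above, which made up 30 of the 64 and 27 of the 54. Of all genes, 44.9% had a proline gap above 0, a share over genes by their brightest probe set and not over all probe sets. A log2 fold change above 0 was found in 45.1% of all 34945 probe sets. Tested by themselves, 0 of the 69 passed in limma, against 0.535% of all probe sets. At an unadjusted p under 0.05, 3 were higher (1 each of Cyp51, Fads2 and Tm7sf2), against 10.6% of all probe sets, and 3 were lower, against 7.98%. The lower ones were further probe sets of Elovl6 (-0.63), Scap (-0.41) and Fads1 (-0.36), and that of Elovl6 had the smallest p of the 69. The 3 probe sets of Scd2 gave proline gaps of 1.08, 2.36 and 3.19 and control gaps of 0.74, 1.75 and 1.96, the first of each from the probe set used here. The size of the Scd2 gap thus differed between probe sets in both groups. The 5 probe sets of Hmgcs1 gave proline gaps from 1.22 to 1.99, with 1.22 from the one used here. The 3 probe sets of Lss disagreed in size, with log2 fold changes of 0.11 for the one used, 0.95 and 0.01. Cyp51 gave 0.78, 0.75 and 0.51 from its 3. Fads2 gave 0.79 for the one used, 0.76 and 0.30. The Fads2 probe set with 0.76 read 8.33 and 9.78 after proline and 7.915 and 8.67 in controls. There proline replicate 1 lay between the controls. The one with 0.30 read 6.99 and 7.04 after proline and 6.73 and 6.71 in controls, both proline means above both control means. For Elovl6 all 3 lay below 0, from -0.63 to -0.01. Acly gave -0.21 to 0.32 over its 6 probe sets. Genes whose probe sets lay on both sides of 0 were Fdps, Fdft1, Msmo1, Hsd17b7, Acly and Fads1.

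**Figure D4:**
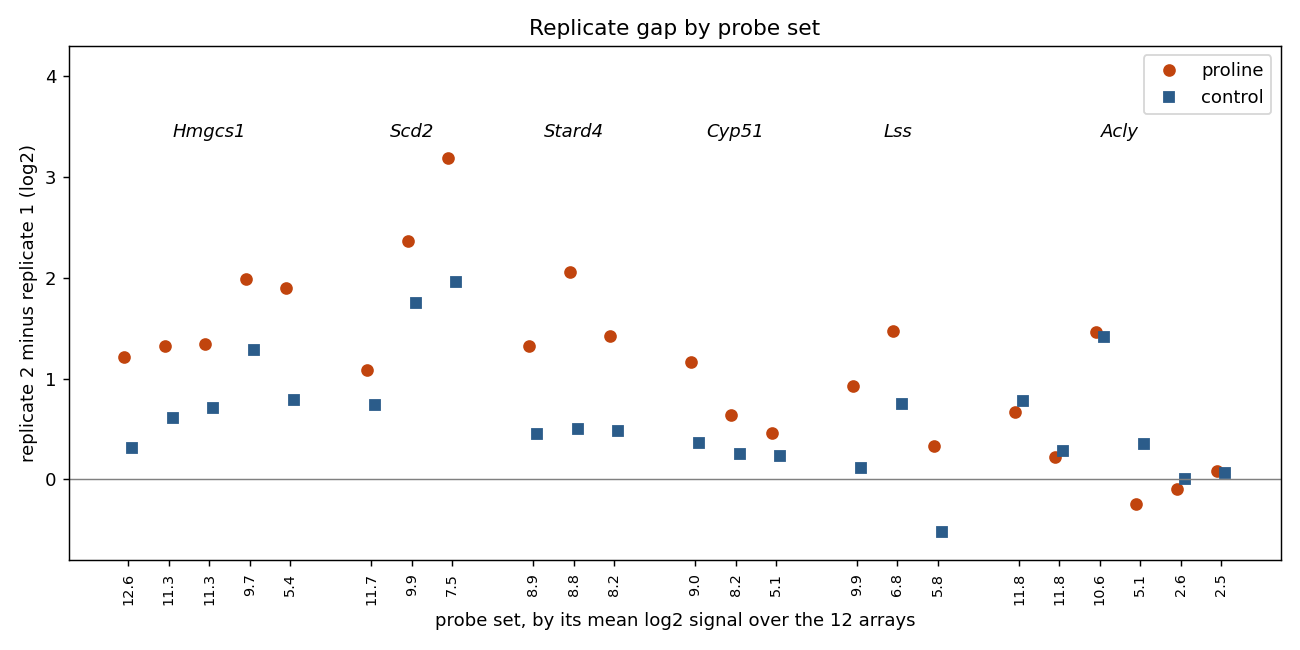
Replicate 2 minus replicate 1 (vertical axis, log2) for each probe set of 6 genes in proline (red circles) and control (blue squares), each gene's probe sets ordered and labelled by mean log2 signal over the 12 arrays. The gaps of Scd2 run from 1.08 to 3.19 in proline and from 0.74 to 1.96 in control.

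Genes beside these routes were read from lists by role, and 5 of 102 rose after proline and 0 fell, against 3.03% of all genes higher and 1.34% lower. These 5 calls, and that of Zfp42, depend on the unit of test and on the replicates. With each probe set tested by itself, their adjusted p in limma ran from 0.0502 to 0.0790, and 0 genes passed without any one biological replicate. Among other SREBP target genes, 16 were measured, of which 1 rose, 0 fell and 15 did not pass. Mid1ip1, which promotes the assembly of active acetyl-CoA carboxylase, read 11.02 and 11.14 after proline and 9.66 and 9.83 in controls, and rose by 1.34 ± 0.13 on the log2 scale (limma adjusted p = 0.0274). Its proline replicates were close to each other, unlike those of the sterol enzymes. Others of the list did not pass. Acsl3, an acyl-CoA synthetase, read 9.97 and 10.67 after proline and 8.74 and 9.21 in controls (limma adjusted p = 0.0885). Pnpla3 read 6.96 and 7.02 after proline and 7.91 and 7.51 in controls (limma adjusted p = 0.103). Acss2, which makes acetyl-CoA from acetate, read 6.91 and 7.51 after proline and 6.49 and 6.71 in controls. The list gave medians of 0.41 in proline replicate 2 and -0.05 in proline replicate 1 against the control mean, with 12 and 7 of 16 above 0. Proline replicate 2 had the highest of the 4 replicate means for 11 of the 16, against 23.3% of all genes. Its 3 arrays lay above the other 9 for 8 of them, against 10.3%. Gaps between the proline replicates ran from -0.56 to 1.41 in this list.

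Fatty acid elongation and activation genes were 16, of which 2 rose, 0 fell and 14 did not pass. Acsl6, another acyl-CoA synthetase, read 7.21 and 7.26 after proline and 6.39 and 6.39 in controls, and rose by 0.84 ± 0.11 (limma adjusted p = 0.0375), with -0.04 from its other probe set. That other probe set was dim, at 5.19 to 5.36. Hacd1, a dehydratase of the elongation cycle, read 9.61 and 9.72 after proline and 8.96 and 8.96 in controls, and rose by 0.71 ± 0.11 (limma adjusted p = 0.0495). The list's medians were 0.25 in proline replicate 2 and 0.30 in proline replicate 1. Fatty acid oxidation genes were 20, of which 2 rose, 0 fell and 18 did not pass, with a median of -0.14 in proline replicate 2 and -0.12 in proline replicate 1. Acadl, a long-chain acyl-CoA dehydrogenase, read 10.18 and 10.66 after proline and 8.30 and 8.75 in controls. It rose by 1.89 ± 0.24 (limma adjusted p = 0.0363), and its other probe set, dim at 3.08 to 3.37, gave -0.07. Cpt2, the inner membrane carnitine palmitoyltransferase, rose by 0.93 ± 0.14 (limma adjusted p = 0.0459), and its other probe set, dim at 3.84 to 4.41, gave 0.46. Cpt1a, the outer membrane transferase that limits entry of fatty acids into mitochondria, read 7.92 and 8.03 after proline and 9.81 and 9.09 in controls, and did not pass (limma adjusted p = 0.0586). Acadm, the medium-chain dehydrogenase, did not pass either, with a log2 fold change of -0.54 ± 0.11 (limma adjusted p = 0.0753).

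No gene passed in the other 4 lists of lipid handling. Their unadjusted counts under 0.05 in limma were 3 of 11 genes for SREBP processing and sterol sensing, 2 of 12 for the isoprenoid branch, 6 of 15 for sterol efflux, transport and LXR targets, and 5 of 12 for triglyceride and lipid droplet genes, where 22.1% of all genes had such a p. The isoprenoid branch leaves the sterol route at farnesyl diphosphate, and its medians were 0.07 in proline replicate 2 and 0.08 in proline replicate 1. Abca1, the sterol exporter, read 7.68 and 7.21 after proline and 8.13 and 8.94 in controls (limma adjusted p = 0.153). Lrp8, of the lipoprotein receptor family, read 7.78 and 8.77 after proline and 6.63 and 6.86 in controls (limma adjusted p = 0.0957). Npc1 and Npc2, which release cholesterol from lysosomes, measured log2 fold changes of 0.60 ± 0.18 and 0.52 ± 0.15 and did not pass. Lipe, the hormone-sensitive lipase, measured -0.85 ± 0.16 (limma adjusted p = 0.0676), and Pnpla2, the lipase that opens triglyceride breakdown, measured 0.74 (limma adjusted p = 0.116).

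**Figure D5:**
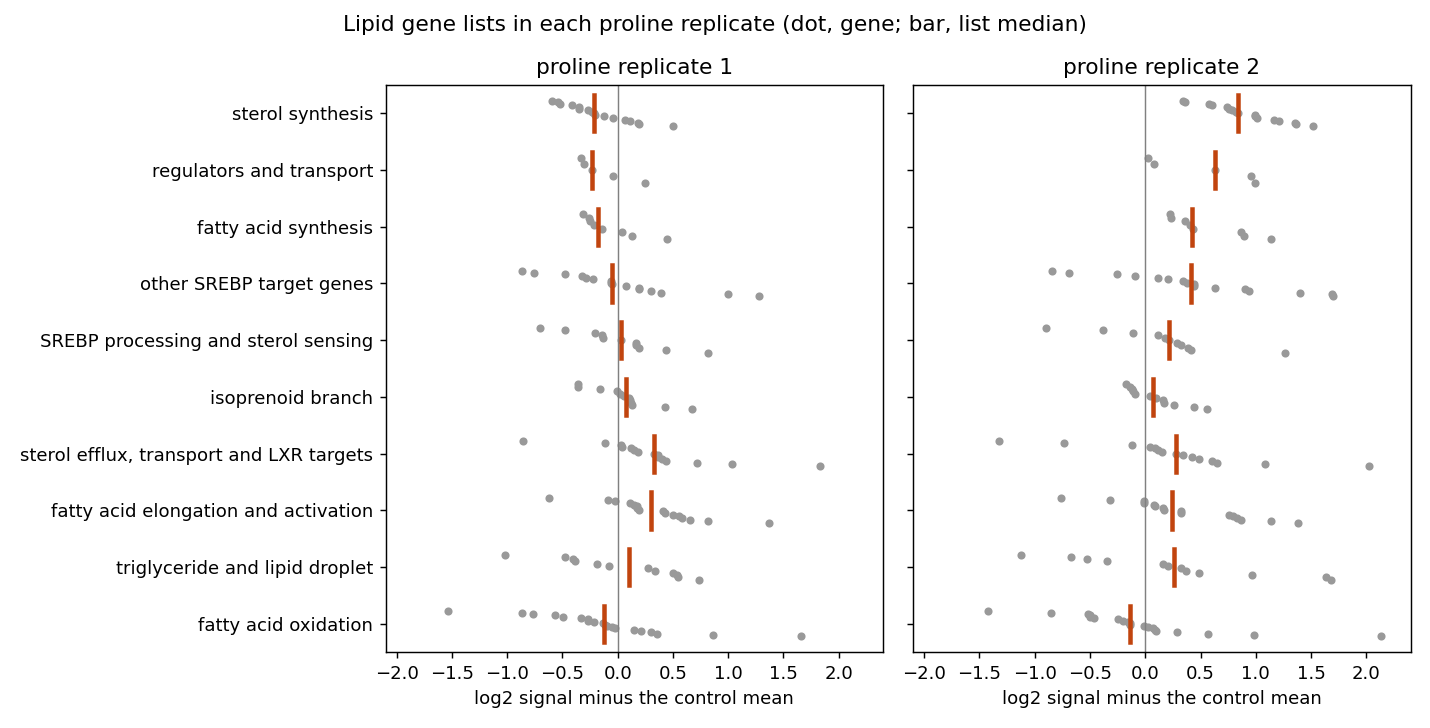
Log2 signal minus the control mean (horizontal axis) in proline replicate 1 (left) and proline replicate 2 (right) for the genes of 10 lipid lists; points are genes and bars list medians. The sterol median is -0.22 on the left and 0.84 on the right, while the fatty acid oxidation median is -0.12 and -0.14.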

How the data were processed

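Transcript levels were measured on 12 Affymetrix arrays, 6 proline and 6 control. The deposited values are log2 signals of 45101 probe sets that the authors had normalized. The submitters' processing notes name MAS5 and RMA without versions, and which of them gave the table is not given in the sources used here. Values ran from 2.10 to 14.79, with array medians of 5.99 to 6.03. The small number of biological replicates limits precision.

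Gene names come from GEO's platform annotation, checked by gene ID against RefSeq GRCm38.p6. A single symbol was held by 34945 probe sets. Another 932 held several and were left unnamed, and 64 array controls were not tested. Arrays a to c of a replicate number, taken as repeats, were averaged. The 4 means entered limma 3.58.1 under R 4.3.3 (lmFit and eBayes, two-sided, no covariate, 2 residual and 2.60 prior degrees of freedom). P-values were adjusted by Benjamini-Hochberg across the 18193 genes, and 0.05 was the threshold. An exact permutation test of 2 against 2 cannot go below 0.333. Lists were described by counts and medians. Every gene past the threshold in the other lists could be named, and otherwise up to 4 of smallest p. Members and lists were chosen with earlier results of these data known. Alternatives covered normalization (quantile, median), dim genes, the summary over probe sets, single probe sets, the replicate number as a block, a random block over the 12 arrays, an intensity trend, a wider sterol list and each replicate left out. Plots were drawn with matplotlib 3.10.9.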

Additional observations from a re-analysis of the deposited data

How the results depend on the processing

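The count of 0 genes past the threshold among the sterol, fatty acid and regulator genes stayed at 0 under quantile normalization, median centring, leaving out dim genes, the median over probe sets, an intensity trend and without any one biological replicate. It changed under 2 settings. With the replicate number as a block, 2 sterol genes (Fdps and Tm7sf2) and 1 fatty acid gene (Fads2) passed, and 0 regulators. With the 12 arrays in a random block, 2 sterol genes (Cyp51 and Tm7sf2), 1 fatty acid gene (Fads2) and 1 regulator (Srebf2) passed. The pairs of numbers were 2 alone and the labels do not say what the numbers share, so that the block is given here only. The replicate gaps of the groups correlated at r = 0.34 over all genes. The count over all genes was 794, against 2039 with the replicate number as a block, 3987 with the random block and 351 with the median over probe sets, and 0 without any one biological replicate. Leaving out 1 replicate moved the sterol median from -0.22 (without proline replicate 2) to 0.84 (without proline replicate 1), the fatty acid median from -0.18 (without proline replicate 2) to 0.48 (without control replicate 2), and their difference from -0.036 (without proline replicate 2) to 0.42 (without proline replicate 1). Across single genes, 330 values were recomputed, of which 32 changed sign, 29 of them without 1 replicate and 18 of these without proline replicate 2. The other 3 were Hsd17b7 (-0.048) and Elovl6 (0.0089) under quantile normalization and Fads1 (-0.13) with the median over probe sets. With the median over probe sets, an alternative applied to the gaps after seeing the data, the sterol gap in proline was 0.92 in place of 1.16, the fatty acid gaps were 0.73 in proline and 0.64 in control. The cause of these changes was not tested. Without 1 replicate, the log2 fold changes that changed sign ran as follows: Idi1 from -0.27 to 1.17, Msmo1 from -0.52 to 1.36, Hsd17b7 from -0.59 to 0.61, Acly from -0.32 to 0.46, Fasn from -0.11 to 0.59, Scd2 from -0.22 to 0.87, Elovl6 from -0.25 to 0.23, Fads1 from -0.14 to 0.36, Srebf1 from -0.30 to 0.080, Scap from -0.23 to 0.024, Hmgcs1 from -0.21 to 1.01, Mvk from -0.24 to 0.36, Pmvk from -0.040 to 0.82, Mvd from -0.41 to 0.75, Fdft1 from -0.54 to 0.84, Lss from -0.35 to 0.58, Nsdhl from -0.35 to 0.997, Ebp from -0.22 to 0.34, Sc5d from -0.12 to 0.74, Scd1 from -0.31 to 0.90, Insig1 from -0.039 to 0.63 and Stard4 from -0.33 to 0.99.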
